A study of Mus musculus with 6 samples.

Results

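Kruppel-like factors (KLF) and NR4A nuclear receptors were followed as 10 genes, Klf2, Klf3, Klf4, Klf6, Klf9, Klf10 and Klf13 with Nr4a1, Nr4a2 and Nr4a3, which were picked by name among the 21780 genes of the count table and were all listed there. The libraries came from live CD45+CD11b+ cells, the myeloid fraction of the pancreas, sorted from wild-type C57BL/6 mice of both sexes aged 6 to 8 weeks. A PBS group of 3 libraries came from mice given a single intraperitoneal injection of PBS, and a WGP group of 3 libraries from mice given 1 mg of whole glucan particles (WGP), hollow yeast cell walls of beta-glucan, by the same route. Both groups were harvested on day 7, and each library is described as a biologically independent animal. The sort gate takes every CD11b+ leukocyte, so a library is a mixture of macrophages, monocytes, granulocytes and other cells.

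KLF proteins bind GC-rich and CACCC sequences through zinc fingers at their C terminus and act as activators or repressors according to the cofactor that their N terminus recruits. Klf2 and Klf4 are known as brakes on inflammatory activation and as regulators of monocyte differentiation, and Klf6 as a promoter of inflammatory gene expression in macrophages. The NR4A receptors have no established physiological ligand, and their activity depends in part on the amount of protein. Their genes are induced within minutes by cAMP, calcium, growth factors and Toll-like receptor signals. Several genes of both families belong to the early response that tissue dissociation also induces.

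The bases before the start sites show a feature that the NR4A genes share and that the choice of genes did not use. RefSeq sequences (GRCm38.p6) were at hand for 9 of the 10 genes, and Klf10 had no entry. Each of the 3 NR4A sequences held 4 copies of TGACG, the core of the cAMP response element to which CREB binds, counted on both strands. Of all 32851 promoter sequences of the same length, 17.8% held at least 1 copy and 0.137% at least 4, a threshold set after the NR4A sequences were read. Klf2, Klf4, Klf9 and Klf13 held 1 copy each, and Klf3 and Klf6 none. The full element TGACGTCA, which holds the core on each strand, was in 0 of the 9 sequences and in 1.55% of all promoters. The 250 bases before the start are shown for Nr4a1 and Nr4a2 as carriers of this feature, and for Klf4 and Klf2 as genes with a single copy and a fall after WGP, 5′ to 3′ on the strand of the gene with the TGACG cores in capitals (read as CGTCA where they lie on the other strand). Nr4a1 is shown at chr15:101266596-101266845 (plus strand), Nr4a2 at chr2:57124004-57124253 (minus), Klf4 at chr4:55532476-55532725 (minus) and Klf2 at chr8:72318812-72319061 (plus), whose last 29 bases lie in an exon of the GENCODE annotation. The Nr4a1 window lies inside the gene as that annotation gives it (101254269 to 101274795), so it precedes an internal start. The window of Nr4a3 is not shown because 152 of its bases lie in an exon of that annotation. The Klf3 window, which is counted here too, lies with all 250 bases in annotated exons of either strand.
Nr4a1: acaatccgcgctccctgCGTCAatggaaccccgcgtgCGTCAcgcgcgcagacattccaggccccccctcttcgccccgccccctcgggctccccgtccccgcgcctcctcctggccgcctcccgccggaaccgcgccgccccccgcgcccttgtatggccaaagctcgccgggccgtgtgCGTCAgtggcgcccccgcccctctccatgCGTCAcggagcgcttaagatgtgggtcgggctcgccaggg
Nr4a2: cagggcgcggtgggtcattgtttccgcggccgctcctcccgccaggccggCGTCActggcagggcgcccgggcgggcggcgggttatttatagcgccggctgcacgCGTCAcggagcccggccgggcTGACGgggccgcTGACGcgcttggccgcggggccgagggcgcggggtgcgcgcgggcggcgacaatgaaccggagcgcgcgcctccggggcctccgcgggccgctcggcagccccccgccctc
Klf4: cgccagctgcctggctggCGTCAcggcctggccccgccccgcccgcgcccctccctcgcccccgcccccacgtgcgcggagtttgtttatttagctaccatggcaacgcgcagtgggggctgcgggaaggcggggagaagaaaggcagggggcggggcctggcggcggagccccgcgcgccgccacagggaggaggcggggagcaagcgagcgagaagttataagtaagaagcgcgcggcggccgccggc
Klf2: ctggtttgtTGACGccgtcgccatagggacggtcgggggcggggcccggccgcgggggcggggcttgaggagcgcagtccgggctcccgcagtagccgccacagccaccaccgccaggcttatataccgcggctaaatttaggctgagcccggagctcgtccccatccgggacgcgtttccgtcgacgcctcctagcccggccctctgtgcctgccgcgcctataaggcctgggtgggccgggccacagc
The GC box GGGCGG, a sequence that KLF and SP proteins themselves bind, was in 8 of these 9 promoters and in 32.7% of all promoters, and CACCC was in 6 of 9 and in 52.0%. An E-box, CACGTG, which clock proteins bind, was found in Klf4 and Klf6, 2 of the 9 genes, and in 6.02% of all promoters. A MEF2 motif was found in Klf2, at position -118 from the start, and in Nr4a2, at position -167, against 1.69% of all promoters. The binding element of the NR4A receptors, AAAGGTCA, the CArG box of serum response factor and an NF-kB motif were in 0 of the 9 sequences, against 1.34%, 1.47% and 7.25% of all promoters. The GC content of the 9 windows was 59.6% (Klf9) to 80.0% (Nr4a2). A GC-rich window favours letters such as GGGCGG, and the 9 were not compared with promoters of like GC content. These matches describe the letters in a short window and not binding.

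Total counts lay between 35334645 and 43341834 per library. The most frequent low count of a library was sought between 5 and 100 counts, with a running mean over 7 values, and lay at 18 to 42. Counts below 5 were not searched. A read was therefore not taken as an independent molecule. In units of this low count the libraries held between 841301 and 2124495. The sort markers Ptprc (CD45) and Itgam (CD11b) were present in every library, with a summed level of 1203 to 1231 CPM (counts relative to library size, scaled with TMM factors) in the PBS and of 1925 to 2135 CPM in the WGP libraries. Y-linked genes held 8972 and 10063 counts in PBS replicates 2 and 3 and at most 1 count in the other libraries. The labels give no sex per library. RNA of male mice was thus seen in the PBS group only, so sex and treatment are partly confounded and cannot be fully told apart. PBS replicate 1 is the PBS library that is like the WGP libraries in this respect. WGP and PBS libraries were compared by the quasi-likelihood test of edgeR over 14429 genes, and genes with a p of at most 0.05 after Benjamini-Hochberg adjustment over all of them were called. Of all genes tested 7.54% were called higher and 6.81% lower in the WGP libraries, the median log2 fold change (WGP over PBS) was -0.05, and in 32% the groups did not overlap.

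The 3 KLF genes with the highest levels, Klf6, Klf2 and Klf4, were lower after WGP. Klf2, Klf4, Klf6, Klf9 and Klf10 fell and Klf13 rose, while Klf3 and the 3 NR4A genes did not pass the test. Thus 5 of the 10 genes were called lower and 1 higher, and in 7 of 10 the groups did not overlap. The median log2 fold change of the 10 genes was -0.91. All 5 falls were also at least 1 on the log2 scale, which 4.96% of all genes tested met together with the adjusted p. Without PBS replicates 2 and 3, the libraries with Y-linked counts, 4 genes were called lower and 1 higher. That comparison has a single PBS library, which is assumed to vary like the WGP libraries, so a call lost in it says little about the gene. In bulk RNA, fewer cells of a type and less RNA per cell cannot be told apart.

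**Figure D1:**
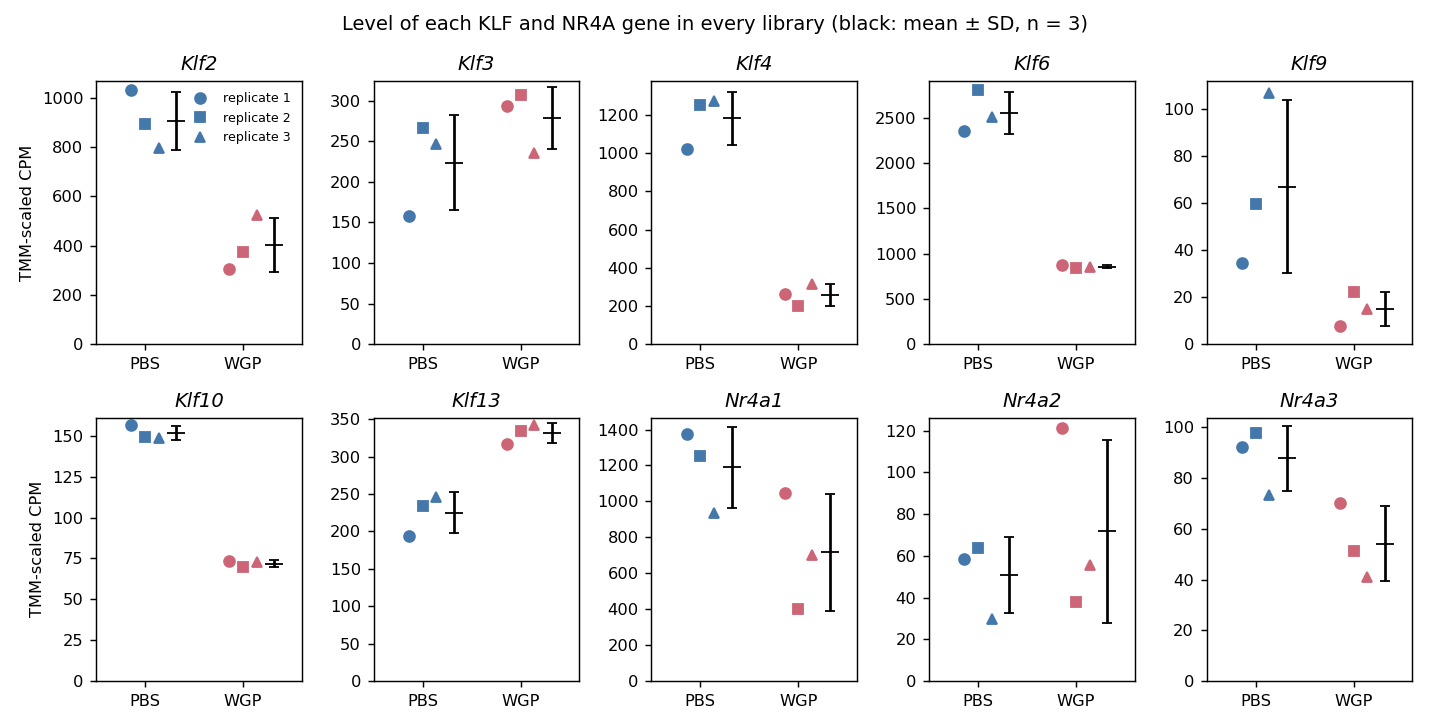
TMM-scaled CPM (y axes, linear and from 0) of each of the 10 genes in the 3 PBS (blue) and 3 WGP libraries (red), with a symbol for each replicate and the mean ± SD in black. The groups are apart for Klf2, Klf4, Klf6, Klf9, Klf10, Klf13 and Nr4a3, and overlap for Klf3, Nr4a1 and Nr4a2.

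Klf6 (ENSMUSG00000000078), an early response gene in macrophages, lies on chromosome 13 of GRCm38 from 5861482 to 5870394. It was at 2354, 2810 and 2510 CPM in PBS replicates 1 to 3 and at 873, 847 and 849 CPM in the WGP libraries. The WGP libraries lay close together, far below the lowest PBS library. The mean fell from 2558 ± 232 to 856 ± 14.4 CPM (SD over 3 libraries each), or -1.58 ± 0.15 (SE) as log2 fold change (edgeR adjusted p = 7.67e-05).

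Klf4 (ENSMUSG00000003032), a factor that drives differentiation of monocytes, lies on chromosome 4 from 55527143 to 55532466. Its level was 1023, 1255 and 1272 CPM in the PBS libraries and 261, 198 and 315 CPM in the WGP libraries. Every WGP library was below every PBS library, and PBS replicate 1 was the lowest of its group. The mean fell from 1183 ± 139 to 258 ± 58.6 CPM, or -2.20 ± 0.20 (SE) as log2 fold change (edgeR adjusted p = 6.23e-05).

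Klf2 (ENSMUSG00000055148), which keeps lymphocytes quiescent and restrains NF-kB targets in myeloid cells, lies on chromosome 8 from 72319033 to 72321656. It was at 1030, 893 and 794 CPM in the PBS libraries and at 307, 375 and 523 CPM in the WGP libraries. The groups did not overlap, and WGP replicate 3 was the nearest to the PBS libraries. Klf2 had a log2 fold change of -1.17 ± 0.21 (SE), with an edgeR adjusted p of 0.00369. Klf2 is abundant in B cells, most of which a CD11b+ gate would leave out, and the summed level of the 5 B cell markers was 2414, 621 and 361 CPM in PBS replicates 1 to 3, the order of the Klf2 levels. In WGP replicates 1 to 3 it was 151, 169 and 86.8 CPM, and the library with the lowest sum had the highest Klf2 level. The part of these cells in the fall of Klf2 was not tested.

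Klf10 (ENSMUSG00000037465), an early TGF-beta response gene that recruits the SIN3A corepressor, lies on chromosome 15 from 38291463 to 38300706. It had the tightest replicates of the 10 genes in the PBS group, with 157, 149 and 149 CPM, and was at 73.5, 69.5 and 72.5 CPM in the WGP libraries. The spread within either group was small against the distance between them. On the log2 scale Klf10 changed by -1.08 ± 0.13 (SE), with an edgeR adjusted p of 0.000411.

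Klf9 (ENSMUSG00000033863), a repressor induced by glucocorticoids and by the circadian clock, lies on chromosome 19 from 23141226 to 23168134. Its level was 34.5, 59.5 and 107 CPM in PBS replicates 1 to 3 and 7.71, 22.0 and 15.1 CPM in the WGP libraries. The PBS libraries were far apart from each other, and the lowest of them was above the highest WGP library. This was a log2 fold change of -2.16 ± 0.45 (SE) for Klf9, with an edgeR adjusted p of 0.00864. In units of the low count Klf9 was the gene with the least data, from 16 units in WGP replicate 1 to 162 in PBS replicate 3. With a term for Y-linked counts the log2 fold change was -1.21 and the call was lost (adjusted p = 0.149 from edgeR), and without PBS replicates 2 and 3 the values were -1.20 and 0.227. The summed level of 11 resident macrophage markers was 11092, 19535 and 23103 CPM in PBS replicates 1 to 3, and 6327, 8268 and 7761 CPM in WGP replicates 1 to 3, the order of the Klf9 levels within each group. The part of these cells in the change of Klf9 was not tested.

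Klf13 (ENSMUSG00000052040), known as an activator of the chemokine gene Ccl5 in T cells, lies on chromosome 7 from 63886351 to 63938915. It went the other way, from 194, 234 and 246 CPM in the PBS libraries to 317, 335 and 343 CPM in the WGP libraries. The groups did not overlap, although the step between them was smaller on the log2 scale than for the genes called lower. Klf13 rose by 0.56 ± 0.14 (SE) on the log2 scale, with an edgeR adjusted p of 0.0266. The call did not hold without PBS replicate 2 (adjusted p = 0.0843) or without WGP replicate 1 (0.0667), 2 (0.0599) or 3 (0.103), all from edgeR, with log2 fold changes of 0.54 to 0.59. E030018B13Rik, a listed gene on the opposite strand of the same locus, had 0 counts in all 6 libraries.

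Klf3 (ENSMUSG00000029178), a repressor that works through CtBP, lies on chromosome 5 from 64803388 to 64832901. It was at 158, 267 and 247 CPM in the PBS libraries and at 293, 307 and 235 CPM in the WGP libraries. The groups overlapped, and PBS replicate 1 was the lowest library. Klf3 had a log2 fold change of 0.31 ± 0.21 (SE), with an edgeR adjusted p of 0.379. With a term for Y-linked counts, which sets PBS replicate 1 alone against the WGP libraries, it was 0.82 (adjusted p = 0.0281 from edgeR).

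None of the 3 NR4A genes passed the test, and their log2 fold changes were -0.73, 0.50 and -0.70 for Nr4a1, Nr4a2 and Nr4a3. Nr4a1 (ENSMUSG00000023034), which encodes NUR77 and is needed for Ly6C-low monocytes, lies on chromosome 15 from 101254269 to 101274795. It was at 1374, 1255 and 938 CPM in the PBS libraries and at 1047, 400 and 700 CPM in the WGP libraries. WGP replicate 1 was above PBS replicate 3, so the groups overlapped. For Nr4a1 the fit gave -0.73 ± 0.30 (SE) on the log2 scale, with an edgeR adjusted p of 0.150. Nr4a1 passed the test in DESeq2 (-0.75, adjusted p = 0.0459), and in edgeR once WGP replicate 1 was left out (-1.11, adjusted p = 0.0324). Over all 19 alternatives its adjusted p lay between 0.0324 and 0.315.

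Nr4a3 (ENSMUSG00000028341), which encodes NOR1, lies on chromosome 4 from 48045153 to 48086447. Its level was 92.5, 97.8 and 73.2 CPM in the PBS libraries and 70.2, 51.2 and 41.1 CPM in the WGP libraries. The groups were narrowly apart, with WGP replicate 1 just below PBS replicate 3. For Nr4a3 the fit gave -0.70 ± 0.22 (SE) on the log2 scale, with an edgeR adjusted p of 0.0571, just short of the threshold. Over 19 alternatives it was called lower in 8, DESeq2 (adjusted p = 0.0317) and limma-voom (0.0470) among them, and not in 11.

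Nr4a2 (ENSMUSG00000026826), which encodes NURR1 and recruits the CoREST corepressor to inflammatory genes, lies on chromosome 2 from 57106830 to 57124003. It was at 58.5, 63.7 and 29.9 CPM in the PBS libraries and at 122, 38.0 and 55.8 CPM in the WGP libraries. WGP replicate 1 was the highest library, and the other 2 WGP libraries lay within the PBS range. For Nr4a2 the fit gave 0.50 ± 0.41 (SE) on the log2 scale, with an edgeR adjusted p of 0.466, and without WGP replicate 1 it was -0.11 (adjusted p = 0.894). WGP replicate 1 was the highest WGP library for all 3 NR4A genes, and the genes of the immediate-early list described below summed to 19051, 13973 and 17515 CPM in WGP replicates 1 to 3, the order of Nr4a1 and Nr4a2 but not of Nr4a3. In PBS replicates 1 to 3 the sum was 33872, 38240 and 31363 CPM, the order of Nr4a2 and Nr4a3 but not of Nr4a1. The part of this early response in the NR4A values was not tested.

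**Figure D2:**
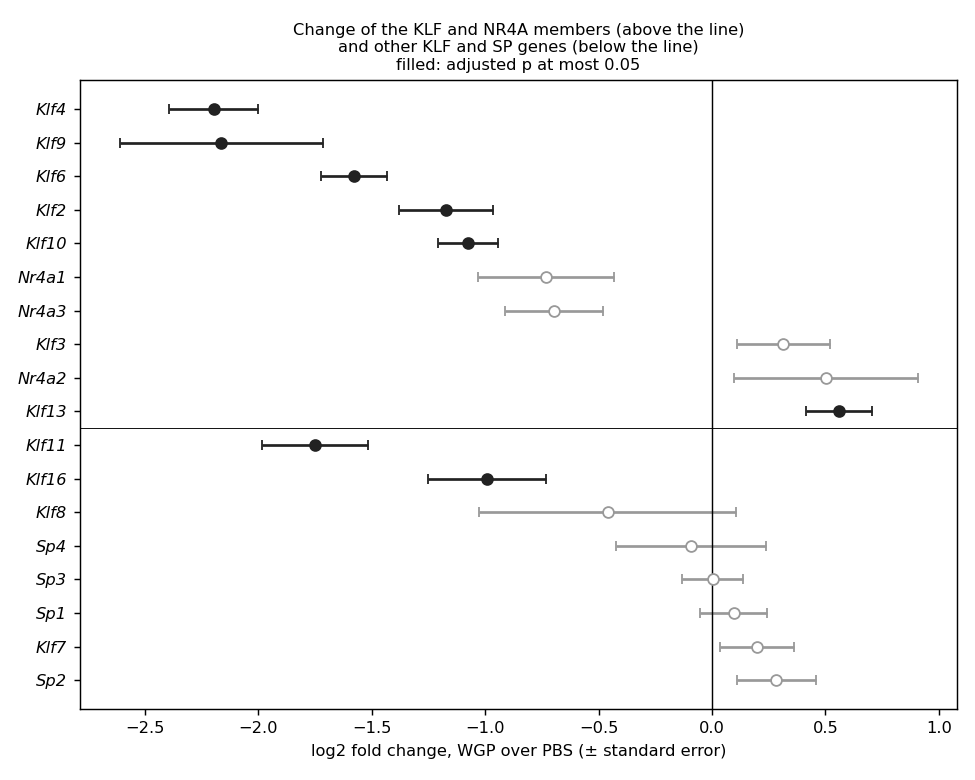
Log2 fold change (x axis, WGP over PBS) with its standard error for the 10 genes above the line and for the 8 other KLF and SP genes with a mean of at least 5 CPM in a group below it, filled where the adjusted p was at most 0.05. Klf4 and Klf9 lie farthest to the left at -2.20 and -2.16, within a standard error of Klf9 of each other, and Klf13 at 0.56 is the filled symbol to the right of 0.

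Levels of different genes were compared as CPM per kilobase of exon. In the PBS libraries the order was Klf6 (583 ± 52.8 CPM per kb), Klf2 (491 ± 64.1), Klf4 (388 ± 45.7) and Nr4a1 (339 ± 64.3), with Klf6 and Klf2, and Klf4 and Nr4a1, overlapping between libraries. The other 6 genes lay far lower, from Klf10 (36.3 ± 1.06 CPM per kb) through Klf13, Klf3, Nr4a3 and Klf9 to Nr4a2 (12.5 ± 4.49), and Klf3, Nr4a3, Klf9 and Nr4a2 overlapped each with the next. In the WGP libraries Klf2 (217 ± 59.8 CPM per kb), Nr4a1 (204 ± 92.3) and Klf6 (195 ± 3.28) overlapped at the top, followed by Klf4 (84.6 ± 19.2) and Klf13 (44.0 ± 1.74). Klf9 was last with 3.10 ± 1.48 CPM per kb. Klf10 went from position 5 to position 8, where it overlapped with Nr4a2 just above it, and Klf13 from 6 to 5. With the length of the longest transcript 4 genes in the PBS and 6 in the WGP libraries had another position. Klf10 was then at position 5 for PBS and 7 for WGP, and Klf13 at 7 and 6.

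The summed level per kilobase of the 7 KLF genes was 1561 ± 67.3 CPM per kb for PBS and 586 ± 70.2 for WGP (WGP over PBS 0.375), and that of the 3 NR4A genes was 366 ± 70.4 and 231 ± 104. Shares within a library do not depend on the scaling between libraries. They rise for an unchanged gene when other genes of the sum fall, so a higher share is not by itself a higher level. Of the KLF sum, Klf4 made up 22.2%, 25.1% and 27.2% in the PBS and 15.9%, 11.7% and 15.5% in the WGP libraries, a difference of -10.5 percentage points. Klf13 made up 1.70% to 2.14% of the sum in the PBS libraries and 6.83% to 8.03% in the WGP libraries, a difference of 5.65 points. Klf3 went from a mean of 1.27% to 4.30%, a difference of 3.03 points that was 5.87 points with the length of the longest transcript. Klf2 (31.5 ± 4.70% and 36.7 ± 5.79%) and Klf6 (37.3 ± 1.83% and 33.6 ± 4.13%) had shares that overlapped between the groups.

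Nr4a1 accounted for most of the NR4A sum in every library, with 91.8% to 93.2% in the PBS and 86.4% to 90.6% in the WGP libraries. The share of Nr4a2 was 3.42%, 4.03% and 2.57% in the PBS and 8.81%, 7.10% and 6.24% in the WGP libraries, apart in all libraries although its level was not. Its mean share was 3.34% against 7.38%. The exact two-sided permutation test gave p = 0.1 for the shares of Klf3, Klf4, Klf10, Klf13, Nr4a1 and Nr4a2, the smallest value that 3 against 3 libraries allow, and 0.167 after adjustment over 10 shares, so this test cannot bring a share under 0.05 with 3 against 3 libraries.

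**Figure D3:**
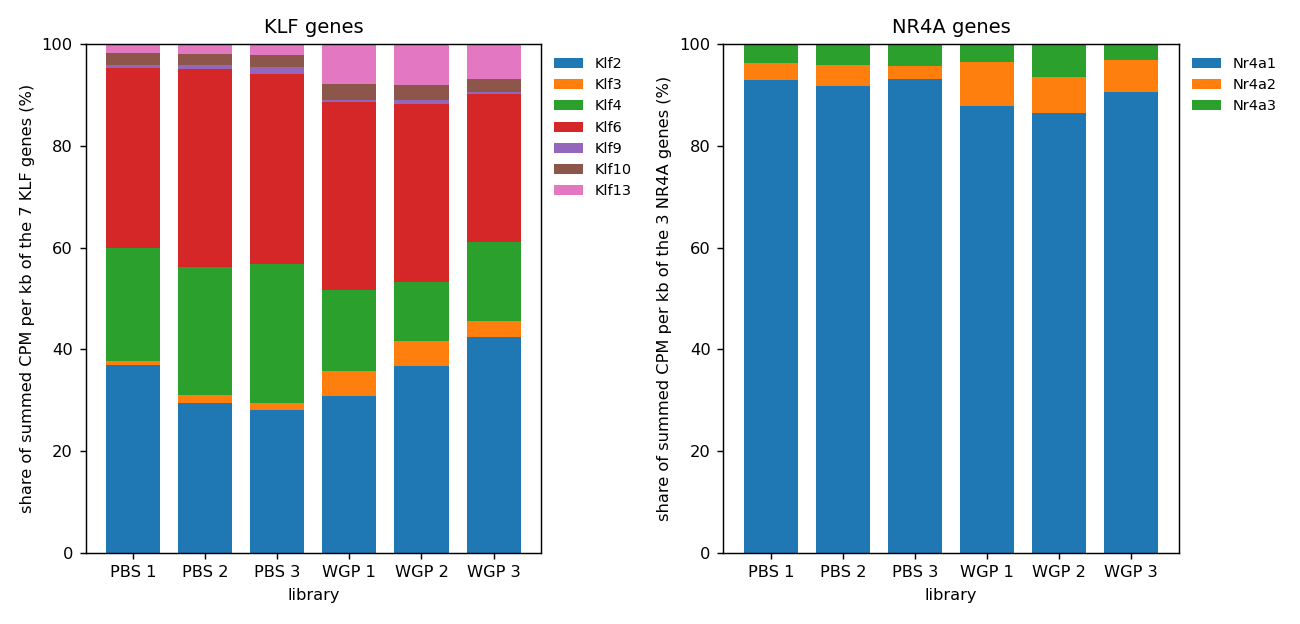
Share (y axis, percent of the summed CPM per kb of the family) of each KLF gene (left) and each NR4A gene (right) in the 6 libraries (x axis). The green Klf4 band narrows and the pink Klf13 and orange Klf3 bands widen in the WGP libraries, and Nr4a1 takes at least 86.4% of the NR4A sum in each library.

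Of 19 other KLF and SP genes, which share the same type of zinc fingers, 12 passed the filter on low counts, and 2 were called, both lower, with a median log2 fold change of -0.57. Klf11, the nearest relative of Klf10, fell from 74.0 to 22.0 CPM (means of 3 libraries), a log2 fold change of -1.75 (SE 0.23, edgeR adjusted p = 0.000671). Klf16, which like Klf9 and Klf13 recruits SIN3A, fell by less (-0.99, edgeR adjusted p = 0.0283). Only 1 of these genes was called lower without PBS replicate 2, without WGP replicate 2 or 3, and without PBS replicates 2 and 3 together. The general activators Sp1 and Sp3 had log2 fold changes of 0.10 and 0.00 (adjusted p = 0.742 and 0.995), and Klf7 one of 0.20 (0.471). Klf12, Klf15 and Sp6 lay below 2 CPM in every library, and Klf5 had a mean of 4.18 CPM in the PBS libraries and a lower one in the WGP libraries (adjusted p = 0.677).

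Among the partners of KLF proteins 3 of 12 genes were called, all lower, with a median log2 fold change of 0.02. Wwp1, a ubiquitin ligase that targets KLF2 for degradation, fell from 392 to 78.9 CPM, a log2 fold change of -2.31 (SE 0.25, edgeR adjusted p = 0.000198). Fbxw7, the substrate receptor of another ligase that acts on KLF2, had a log2 fold change of -0.71 (adjusted p = 0.0204), and Fhl3, a LIM-domain partner of KLF3, one of -0.76 (0.0371). A single gene was called lower without PBS replicate 2, WGP replicate 1 or WGP replicate 3. The corepressors Ctbp1, Ctbp2, Sin3a, Sin3b, Hdac1 and Hdac2 did not pass, with log2 fold changes from -0.19 (Hdac2) to 0.34 (Sin3a). Of the 10 NR4A partners, retinoid X receptors and coregulators, 0 were called by edgeR, by DESeq2 or by limma-voom, and 0 had an unadjusted edgeR p under 0.05. The smallest p belonged to the corepressor Trim28 (-0.36, adjusted p = 0.248), followed by the demethylase Kdm1a (0.30, adjusted p = 0.343).

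In the ERK5 and MEF2 pathway, which drives Klf2, Klf4 and Nr4a1, 1 of 11 genes was called. This gene was Mef2c, a MADS-box factor, which went from a mean of 284 to 54.0 CPM, a log2 fold change of -2.39 (SE 0.17, edgeR adjusted p = 1.86e-05). Mapk7, the gene of ERK5, was at 50.6 and 84.1 CPM (log2 fold change 0.73, adjusted p = 0.0898), and Hdac5, a repressor of MEF2 factors, at 168 and 115 CPM (-0.54, adjusted p = 0.0609). Without PBS replicate 1, 3 genes of this pathway were called lower. In the CREB pathway 1 of 13 genes was called higher and 2 lower (1 lower without PBS replicate 2 or WGP replicate 3). Nfil3, a CREB target and transcriptional repressor, rose (1.41, adjusted p = 0.00970), Prkacb, a catalytic subunit of protein kinase A, fell (-0.98, adjusted p = 0.00374), and so did the CREB coactivator Crtc1 (-1.01, adjusted p = 0.0139), all from edgeR. Of 13 TGF-beta and SMAD genes 2 were called, both lower, and 4 without PBS replicate 3. These were the receptor gene Tgfbr2 (538 to 208 CPM, log2 fold change -1.37, adjusted p = 0.000622) and Skil, a SMAD corepressor (-0.80, adjusted p = 0.00744), while Smad3 was at 0.57 (0.0518).

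Of 20 immediate-early and stress genes outside the 10 members 11 were called lower and 1 higher (0 higher without PBS replicate 3 or WGP replicate 1), with a median log2 fold change of -0.85. The list holds 3 heat shock genes, Hspa1a (-2.98), Hspa1b (-3.06) and Dnajb1 (-2.23), all called lower, and of the other 17 genes 8 were called lower and 1 higher, with a median of -0.34. This division of the list was made after the values were seen. Egr1 fell from 3099 to 837 CPM (log2 fold change -1.89, SE 0.17, edgeR adjusted p = 6.02e-05), Jun from 3217 to 863 CPM (-1.90, standard error 0.18, adjusted p = 9.07e-05) and Fosb from 4805 to 781 CPM (-2.62, standard error 0.29, adjusted p = 0.000214). The 20 genes summed to 31363 to 38240 CPM in the PBS and 13973 to 19051 CPM in the WGP libraries. Many of these genes are also raised by enzymatic dissociation and sorting, and the part of sample handling in the differences was not tested.

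Clock genes and glucocorticoid response genes, to which Klf9 is linked as an inducible gene, were followed next. Of 17 circadian clock genes 6 were called, all lower, with 16 of 17 log2 fold changes below 0 and a median of -0.75. Arntl, the positive arm of the clock, fell from 48.6 to 16.9 CPM (log2 fold change -1.53, SE 0.25, edgeR adjusted p = 0.00244), and the repressors that act on it, Nr1d2 (-1.51, adjusted p = 0.00591) and Nr1d1 (-3.04, adjusted p = 0.00750), fell too. Of 9 glucocorticoid response genes that were tested 4 were called lower and 1 higher, with a median of -0.78. Sgk1 rose (1.23, adjusted p = 0.000489), and Errfi1 (-1.43, adjusted p = 0.00278) and Zbtb16 (-2.01, adjusted p = 0.00842) fell, all from edgeR. Without PBS replicates 2 and 3, which leaves a single PBS library, 3 clock genes and 0 glucocorticoid response genes were called lower, and without WGP replicate 3 alone 2 glucocorticoid response genes were.

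Textbook targets of KLF2 and KLF4 went in both directions, with 3 of 8 called higher and 1 lower. S1pr1, a KLF2 target that guides egress of lymphocytes, fell from 170 to 25.2 CPM (log2 fold change -2.75, SE 0.27, edgeR adjusted p = 0.000108). The cell cycle inhibitor Cdkn1a (0.72, adjusted p = 0.00993) and the integrin gene Itgb7 (1.05, adjusted p = 0.0149) rose, as did Cd14. These higher calls depended on single libraries, with 1 left without PBS replicate 2 and 0 without WGP replicate 1. Of 10 other nuclear receptor genes 4 were called, all higher (2 without PBS replicate 2 or WGP replicate 2), among them Nr1h3, the oxysterol receptor LXR alpha (12.9 to 51.6 CPM, log2 fold change 2.01, adjusted p = 0.000949), Esrra (0.97, adjusted p = 0.00916) and Ppard (0.67, adjusted p = 0.0173), all from edgeR.

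Markers of cell types differed between the groups beside these genes. Of 11 resident macrophage markers 7 were called, all lower. The farthest apart were Lyve1 (log2 fold change -4.66), Cd163 (-4.50), Folr2 (-3.67) and Timd4 (-3.55). Of the markers with the highest levels, C1qa was called (2859 and 1128 CPM) and Csf1r was not (3367 and 2713 CPM, edgeR adjusted p = 0.456). Of 8 markers of Ly6C-high monocytes 5 were called higher and 1 lower, with sums of 2934 to 6428 CPM in the PBS and 6694 to 8275 CPM in the WGP libraries, and of 8 Ly6C-low monocyte markers 2 were called higher and 4 lower (1597 to 2171 and 1298 to 1389 CPM). The count of Ly6C-low markers called lower was 2 without PBS replicate 2 or 3 or without WGP replicate 3. All 5 B cell markers were called lower, and none was at 0 in either group. Endothelial cells express Klf2 and Klf4 strongly, and a gate for CD11b+ leukocytes would leave most of them out. Their marker sums were 30.5 to 118 CPM in the PBS and 51.6 to 78.4 CPM in the WGP libraries. Of 6 markers 3 had log2 fold changes above 0 and 3 below. Only Kdr was called, as higher (2.52, edgeR adjusted p = 0.00839). Of 10 acinar genes 9 were called lower (1452 to 5470 and 376 to 634 CPM), with Amy2a5 at 0 in the WGP libraries and in PBS replicates 1 and 3, and fibroblast markers reached 1817 CPM in WGP replicate 2 against at most 175 CPM in the other libraries. Of 8 neutrophil markers 2 were called, Cxcr2 (1.30, edgeR adjusted p = 0.00320) and Csf3r (0.81, adjusted p = 0.00925), both higher, while the other 6 had log2 fold changes below 0 and the sums overlapped (1585 to 5308 and 2267 to 2434 CPM). Without PBS replicate 3, 2 neutrophil markers were called lower. Of the markers tested for eosinophils (6), conventional dendritic cells (6), T cells (5), NK cells (5), platelets (3) and fibroblasts (6), the numbers called were 0, 1, 1, 1, 1 and 0. The T cell call was lost without PBS replicate 2 or any WGP library and the NK cell call without PBS replicate 2 or WGP replicate 1 or 3, and 3 fibroblast markers were called lower without WGP replicate 2. For eosinophils and dendritic cells the counts moved by at most 1 gene in a direction when a single library was left out. The part of these cell types in the KLF and NR4A values was not tested.

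For the 6 genes that were called, the genes with the most similar profile over the 6 libraries were sought among 8567 others with a mean of at least 10 CPM, by the root mean square difference of centred log2 CPM. Closest to Klf4 were Gabbr1 (0.09) and Adam19 (0.11), and closest to Klf6 were Ccl4 (0.11) and Zhx3 (0.11). Klf10 was followed by Eif5 (0.05) and Rubcn (0.06), and Klf2 by Hmces (0.13) and Fpgs (0.15). Klf9, the most variable of the called genes, had its nearest profiles farther away, in Ltc4s (0.19) and Serpinb6a (0.20). Klf13 was closest to Cd84 (0.02) and Slc12a4 (0.04). The 6 libraries form 2 groups, so any gene with a like difference between the groups comes out as near by this measure.

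Of the 6 calls, 4 held under every setting tried. Over 19 alternatives Klf2, Klf4, Klf6 and Klf10 were called lower in each, with log2 fold changes of -1.41 to -1.01, -2.37 to -1.98, -1.68 to -1.46 and -1.18 to -1.05. Klf9 was called in 17, Klf13 in 15, Nr4a3 in 8, Nr4a1 in 2, Klf3 in 1 and Nr4a2 in 0.

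**Figure D4:**
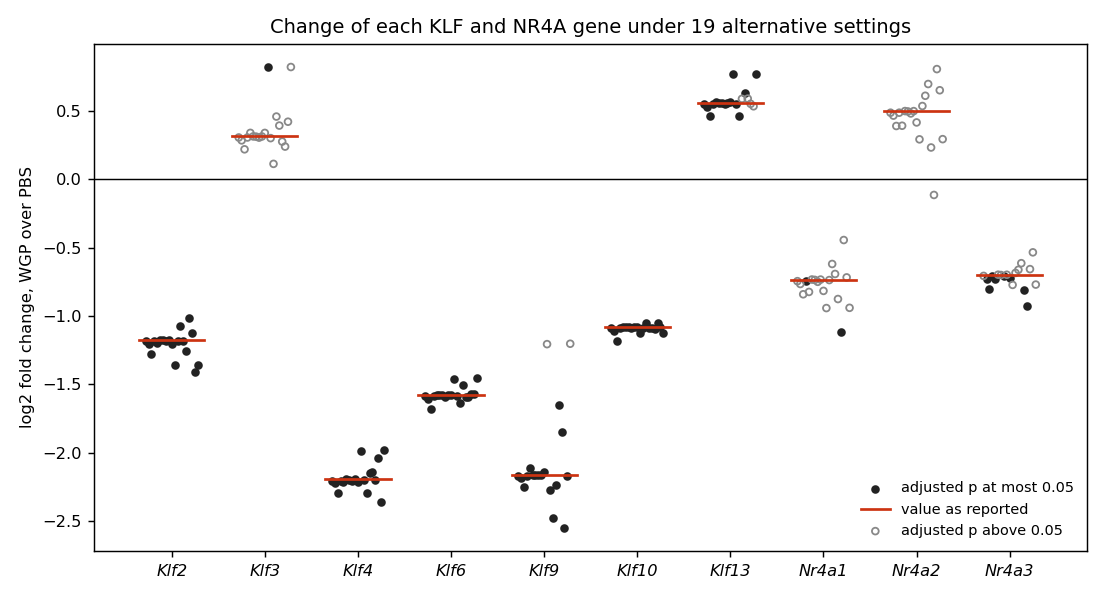
Log2 fold change (y axis, WGP over PBS) of each gene (x axis) under 19 alternative settings, filled where the adjusted p was at most 0.05, with the value as reported as a red line. Klf2, Klf4, Klf6 and Klf10 have filled symbols throughout, and the symbols of Nr4a2 are open and lie on both sides of 0.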

How the data were processed

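Poly-A RNA libraries of 3 PBS and 3 WGP samples were sequenced as single-end reads in 1 run. Alignment by the authors was to mm10 with STAR 2.6, and HTSeq 0.10.0 gave the deposited raw counts, 1 value per gene and library with no normalization (versions from the submitters' processing notes). The annotation release, the strand setting and the handling of duplicate reads are not given in the sources used here. Symbols, positions and exon lengths came from GENCODE vM21 (GRCm38), and promoters from RefSeq. The 10 members, the gene lists and the tests were chosen with earlier results of these data known.

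Protein-coding genes entered the test if their RLE-scaled counts added up to 10 or more across libraries, which left 14429. They were tested with TMM factors and the quasi-likelihood test of edgeR 4.0.16 in R 4.3.3 (limma 3.58.1 and DESeq2 1.42.0 as alternatives). Adjusted p values cover all genes tested, and SE stands for the size of the log2 fold change divided by the root of F. No pair of replicates looked like repeat copies of 1 library (chi-square per gene 66.5 to 278 on counts, and 2.85 to 8.20 on counts divided by the most frequent low count of each library, with 1 as the value for sampling noise).

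Named were the 10 members, other KLF and SP genes, up to 3 genes with the smallest p of each further list, the 2 highest markers of a cell type and the 2 nearest profiles of each called member. Other genes named (the corepressors of KLF proteins, Cd14, Amy2a5, E030018B13Rik, Lyve1 and heat shock genes) were chosen after their values were seen.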

Additional observations from a re-analysis of the deposited data

How the results depend on the processing

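At an adjusted p of at most 0.01, 665 genes were called higher and 512 lower, against 1088 and 983 at 0.05, and 0 members were called higher, as when log2 changes of 1 or more in size were also required (653 genes higher). Without the PBS libraries with Y-linked counts, a choice made after seeing the data that leaves a single PBS library, 592 genes were called lower. With a term for Y-linked counts 2 members, Klf3 and Klf13, were called higher. Leaving out a single library gave 774 to 1152 genes higher, 643 to 1051 lower (the lowest without PBS replicate 2), 0 to 1 members higher and 5 to 7 lower. Library totals in place of TMM factors moved the median of all genes by -0.10 on the log2 scale and no member to the other direction. With the replicate number as a block 1016 genes were called higher, 931 lower and 6 members lower, with Nr4a3 as the added call (adjusted p = 0.0298 from edgeR), but the numbers are no sign of a pairing: deviations of same-numbered libraries from their group means correlated at 0.09, -0.06 and 0.08 across genes. With the length of the longest transcript the difference in share of Klf3 was 5.87 points, and 4 and 6 members took another position in the order of levels in the PBS and WGP libraries. Of 1092 counts of called genes in the other lists under alternatives, 133 differed by more than 1.5 times from the reported ones. The cause of these differences was not tested. Depth limits Klf9, Nr4a2 and Nr4a3 most, with at least 16, 45 and 58 units of the low count in a library.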
